A study of Mus musculus with 4 samples.

Results

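The genes described here are 9 genes of the red cell lineage, read by symbol from the deposited tables of 55401 genes: *Hba-a1*, *Hba-a2*, *Hbb-bs*, and *Hbb-bt*, which encode adult globins, and *Alas2*, *Slc4a1*, *Klf1*, *Ermap*, and *Gata1*. RNA came from CD45+ immune cells sorted from the dura mater of wild-type male C57BL/6J mice. The mice had received 2 μl of an AAV9 vector into the cisterna magna at 4 wk of age. The AAV-mVEGF-C vector encodes mouse VEGF-C at full length, whereas the AAV-CTRL vector encodes a part of mouse VEGFR-3 joined to an immunoglobulin tail. The study describes that part of VEGFR-3 as not binding VEGF-C. Each group had 2 libraries, and each library pooled the dura of 10 to 12 mice, so a library is a pool and not an animal. Nothing in the sources used here gives the time from injection to sorting for these libraries, and p-values measure only the spread between pools.

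Hemoglobin is a tetramer of α and β globin chains, each holding a heme group that binds oxygen. Erythroid precursors in the bone marrow make it in large amounts, under transcription factors such as GATA1 and KLF1, and then lose their nucleus. Mature red cells do not carry CD45 and have no nucleus, while reticulocytes, the youngest red cells, still hold globin RNA. No lysis of red cells is named among the steps described. Before the dura was peeled from the skullcap, the mice had been perfused with PBS. CD45 sorting was then the step meant to keep leukocytes.

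All 9 genes had lower mean CPM in AAV-mVEGF-C than in AAV-CTRL, though the mean TPM of *Gata1* was higher. The ratio of the control mean to the AAV-mVEGF-C mean was widest for *Hba-a2* (4.13) and *Alas2* (4.03). Together the globins were at 115 and 141 CPM (reads scaled to library size, with edgeR's TMM factors) in AAV-CTRL 1 and 2. They were at 25.5 and 47.3 CPM in AAV-mVEGF-C 1 and 2. The mean was 128 ± 18.8 CPM (SD, n = 2 pools) against 36.4 ± 15.4 CPM (SD, n = 2), 3.52-fold lower after AAV-mVEGF-C. None of the genes passed edgeR's quasi-likelihood test after Benjamini-Hochberg adjustment over all genes, and neither did any other gene in the table.

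The globin genes come as near copies, and the sequences show why their reads were also summed. In GENCODE M21 the coding sequences of *Hba-a1* and *Hba-a2* have 429 bases each and differ at 1 of them (99.8% identity). Those of *Hbb-bs* and *Hbb-bt* have 444 bases and also differ at 1 (99.8%). With positions counted from 1 at the first base of the start codon, the differences are C381T from *Hba-a1* to *Hba-a2* and C417T from *Hbb-bs* to *Hbb-bt*. Around them, coding bases 361 to 400 of the α genes and 397 to 436 of the β genes read as follows, 5′ to 3′, with the base that differs in capitals.
Hba-a1: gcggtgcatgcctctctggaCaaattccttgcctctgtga
Hba-a2: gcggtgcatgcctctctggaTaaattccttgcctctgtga
Hbb-bs: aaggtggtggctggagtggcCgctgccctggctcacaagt
Hbb-bt: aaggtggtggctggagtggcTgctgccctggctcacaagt
Of the 600 stretches of 100 bases in the main *Hba-a1* transcript, 56.5% occur unchanged in that of *Hba-a2*, and 62.6% of the 529 in *Hbb-bs* occur in *Hbb-bt*. A single read of 100 bases, the length the study used, can therefore fit both members of a gene pair. Sequencing was apparently paired-end, and these shares leave out what the second read of a fragment adds. The deposited read values of these genes have decimals, as programs that divide reads between genes give. The level of each single globin gene is therefore uncertain, and the sum of a gene pair does not depend on that division.

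The genes lie apart in the genome. In GENCODE M21 on GRCm38 (mm10), *Hba-a1* is at chr11:32283511-32284465 and *Hba-a2* at chr11:32296489-32297298, both on the plus strand. *Hbb-bs* is at chr7:103826534-103828096 and *Hbb-bt* at chr7:103812524-103813996, both on the minus strand. *Alas2* is at chrX:150547375-150570638 (plus), *Gata1* at chrX:7959260-7978071 (minus), *Slc4a1* at chr11:102348824-102366203 (minus), *Klf1* at chr8:84901928-84905291 (plus), and *Ermap* at chr4:119175457-119190011 (minus). The table gives *Klf1* and *Ermap* under a later version of their identifiers than GENCODE M21 does.

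Because most of these genes were lower together and are classical targets of GATA1, their promoters were searched for the letters AGATAA or TGATAA, on both strands, in the 250 bases before the RefSeq start. The letters occurred in 6 of the 8 genes with a promoter in the RefSeq table (GRCm38.p6), namely *Hba-a1*, *Hba-a2*, *Hbb-bs*, *Alas2*, *Klf1*, and *Ermap*. *Slc4a1* was not in that table. They occurred in 16.6% of all 32851 promoters of that length. Stretches of 60 bases from 5 of these genes hold one of these matches each, in capitals, and are written 5′ to 3′ on the gene's own strand, where TTATCT and TTATCA are the same letters on the opposite strand. *Hba-a2* is shown from chr11:32296272-32296331, *Hbb-bs* from chr7:103828099-103828158, *Alas2* from chrX:150547307-150547366, *Klf1* from chr8:84901868-84901927, and *Ermap* from chr4:119190036-119190095.
Hba-a2: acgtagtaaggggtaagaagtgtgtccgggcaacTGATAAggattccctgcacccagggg
Hbb-bs: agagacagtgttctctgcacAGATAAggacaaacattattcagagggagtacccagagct
Alas2: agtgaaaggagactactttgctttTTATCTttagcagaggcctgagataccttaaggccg
Klf1: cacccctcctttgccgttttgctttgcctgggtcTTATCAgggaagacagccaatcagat
Ermap: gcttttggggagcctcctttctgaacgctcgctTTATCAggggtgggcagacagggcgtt
The matches begin 186, 210, 86, 80, and 67 bases before the start, in that order of genes. The letters CCNCNCCC, a form of the CACCC box that KLF1 binds, were in the same 250 bases of *Hbb-bs*, *Hbb-bt*, *Alas2*, and *Gata1*, and in 45.9% of all promoters. A match is a run of letters and was not tested as a binding site.

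The libraries held about 46409700 and 33336100 reads assigned to genes for the controls, and about 38052000 and 32520700 for AAV-mVEGF-C. The fewest genes had any reads in AAV-CTRL 1, the deepest library, with 20993 against 29230 to 37535 in the others. Leukocyte markers were high in every library, with *Ptprc*, which encodes CD45, at 946 to 1151 CPM. The 6 leukocyte markers (*Ptprc*, *Cd52*, *Cd53*, *Coro1a*, *Laptm5*, and *Lcp1*) summed to 4822 and 3983 CPM in the control pools and 4214 and 4589 CPM with AAV-mVEGF-C. *Vegfc*, the gene that the vector carries, had 208 and 106 reads in the controls, against 65 and 59 with AAV-mVEGF-C. It was thus lower in the group given that vector, at 4.65 and 3.08 CPM in the control pools against 1.66 and 1.86 CPM. The log2 fold change was −1.13 ± 0.45 (SE), with an edgeR adjusted p of 0.999. These leukocyte libraries therefore give no check of vector delivery.

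Of the α globin genes, *Hba-a2* had 2230.5 and 1493.78 estimated reads in AAV-CTRL 1 and 2, or 49.9 and 43.4 CPM. It had 293.3 and 478.54 reads in AAV-mVEGF-C 1 and 2, or 7.51 and 15.1 CPM. Both AAV-mVEGF-C libraries lay below both controls. The log2 fold change was −2.05 ± 0.35 (SE), with an edgeR adjusted p of 0.687. *Hba-a1* was at 21.3 and 32.7 CPM in the control pools, against 5.60 and 10.0 CPM with AAV-mVEGF-C, again with no overlap between the groups. Its log2 fold change was −1.79 ± 0.36 (SE), with an edgeR adjusted p of 0.999.

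The β globin genes had the same order of libraries among themselves. *Hbb-bs* was at 31.0 and 41.9 CPM in the control pools, against 7.13 and 13.7 CPM with AAV-mVEGF-C. The log2 fold change was −1.81 ± 0.35 (SE), with an edgeR adjusted p of 0.999. *Hbb-bt* was at 12.8 and 23.4 CPM in the control pools, against 5.28 and 8.45 CPM with AAV-mVEGF-C, a log2 fold change of −1.40 ± 0.39 (SE), with an edgeR adjusted p of 0.999. For both genes AAV-CTRL 2 was the highest library and AAV-mVEGF-C 1 the lowest. *Hba-a1* had that order too, whereas *Hba-a2* was highest in AAV-CTRL 1.

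**Figure D1:**
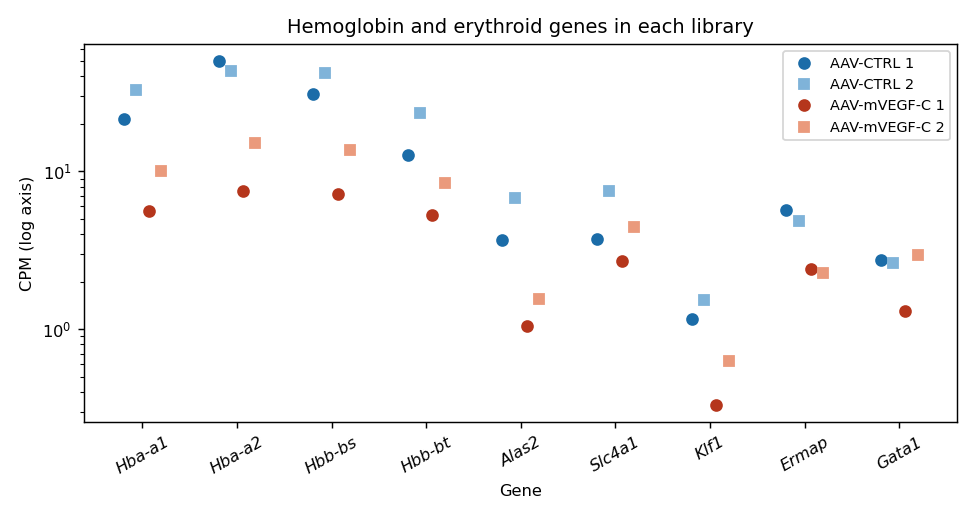
CPM of each gene (log axis) in each of the 4 libraries, 1 point per library, blue shades for AAV-CTRL and red shades for AAV-mVEGF-C. The red points lie below the blue points for all genes but *Slc4a1* and *Gata1*, where the groups overlap.

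Summed over the 4 genes, globin reads were 0.0111% of all assigned reads in AAV-CTRL 1 (95% Wilson interval, 0.0108 to 0.0114) and 0.0146% in AAV-CTRL 2 (0.0142 to 0.0150). They were 0.00262% in AAV-mVEGF-C 1 (0.00246 to 0.00279) and 0.00461% in AAV-mVEGF-C 2 (0.00438 to 0.00485). Globin RNA was thus a small part of each library. The intervals of the groups were apart, but so were those of the 2 pools within each group. These bounds reflect the counting of reads alone and leave out the spread between pools. PCR copies of a molecule are also counted as separate reads. The difference in mean log2 CPM of the sum was −1.88, with an SD of 0.21 in AAV-CTRL and 0.63 in AAV-mVEGF-C (p = 0.333 in an exact permutation test, two-sided, the lowest value possible for 2 pools per group). In a bulk library, fewer cells of a type and less RNA per cell cannot be told apart.

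The balance of the chains was also read from the sums. The ratio of α to β reads was 1.63 in AAV-CTRL 1 and 1.17 in AAV-CTRL 2, against 1.06 and 1.13 with AAV-mVEGF-C. On TPM, which is scaled for transcript length, it was 1.98 and 1.34 in the controls, against 1.21 and 1.24 with AAV-mVEGF-C. AAV-CTRL 1 stood apart from the other 3 libraries on both scales. *Hba-a2* took 70.1% of the α reads in that library and at most 60.1% in the others. *Hbb-bs* took 70.9% and 64.2% of the β reads in AAV-CTRL and 57.5% and 61.9% in AAV-mVEGF-C. These shares depend on how the reads were divided between near copies.

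*Alas2* encodes the erythroid form of δ-aminolevulinate synthase, which makes the first and rate-limiting step of heme synthesis. It had 164 and 234 reads in the controls, against 41 and 49 with AAV-mVEGF-C, or 3.67 and 6.80 CPM against 1.05 and 1.55 CPM. Both AAV-mVEGF-C libraries lay below both controls. The log2 fold change was −2.01 ± 0.50 (SE), with an edgeR adjusted p of 0.999, close in size to that of *Hba-a2*. *Alas1*, the form that other cells use, was at 126 and 67.2 CPM in the control pools, against 94.1 and 83.4 CPM with AAV-mVEGF-C, with overlapping groups. *Alas2* made up 2.82% and 9.19% of the reads of both synthase genes in AAV-CTRL, and 1.10% and 1.82% in AAV-mVEGF-C.

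The membrane genes are *Ermap* and *Slc4a1*, and they were not tested against each other. *Ermap*, which encodes an erythroid membrane protein of the immunoglobulin superfamily, had 253 and 167 reads in the controls, against 94 and 72 with AAV-mVEGF-C. That was 5.66 and 4.86 CPM against 2.41 and 2.27 CPM, with no overlap between the groups. Its log2 fold change was −1.17 ± 0.36 (SE), with an edgeR adjusted p of 0.999. *Slc4a1* encodes band 3, the anion exchanger of the red cell membrane. It was at 3.74 and 7.53 CPM in the control pools, against 2.71 and 4.45 CPM with AAV-mVEGF-C, so AAV-mVEGF-C 2 lay between the controls. The log2 fold change was −0.65 ± 0.48 (SE), with an edgeR adjusted p of 0.999. In TPM the groups of *Slc4a1* did not overlap, at 1.16 and 1.23 in the controls, against 0.390 and 0.629 with AAV-mVEGF-C, so the overlap depended on the unit.

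Of the transcription factors, *Klf1*, which drives adult β globin expression, had 52 and 53 reads in the controls, against 13 and 20 with AAV-mVEGF-C. That was 1.16 and 1.54 CPM against 0.333 and 0.631 CPM, with no overlap. The log2 fold change was −1.49, with the largest standard error of the 9 genes, 0.81 (adjusted p = 0.999 from edgeR). *Gata1*, the master regulator of the erythroid, megakaryocyte, mast cell, and eosinophil lineages, had 122 and 90 reads in the controls, against 51 and 94 with AAV-mVEGF-C. Its highest library was AAV-mVEGF-C 2, at 2.97 CPM, and its lowest AAV-mVEGF-C 1, at 1.31 CPM, with the controls between them at 2.73 and 2.62 CPM. The log2 fold change was −0.33 ± 0.55 (SE), with an edgeR adjusted p of 0.999. It was 0.086 in the other direction on log2(TPM + 1), so no direction is given for *Gata1*.

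**Figure D2:**
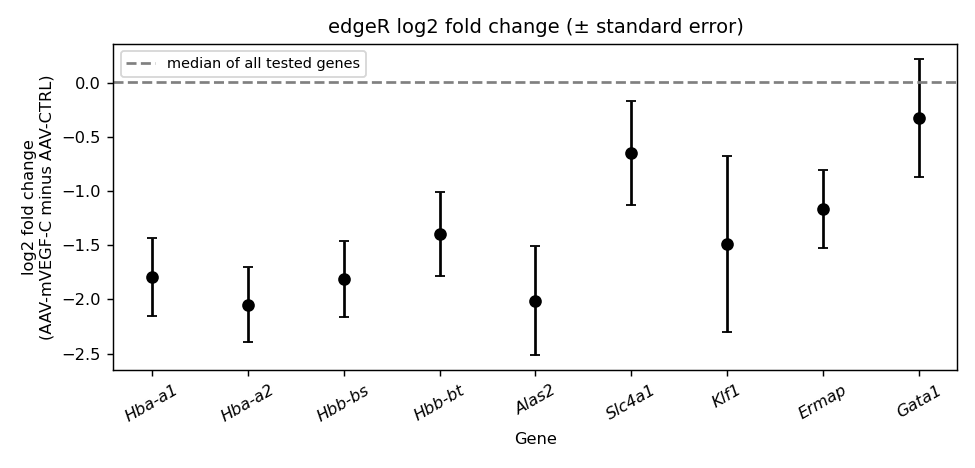
edgeR log2 fold change of each gene (AAV-mVEGF-C minus AAV-CTRL, points) with its standard error (bars). The 4 globin genes and *Alas2* lie between −1.40 and −2.05, *Gata1* and *Slc4a1* nearest to the dashed line, the median of all tested genes at 0.0034.

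All 9 genes were among the 19806 that passed edgeR's expression filter. With an adjusted p threshold of 0.05, edgeR called 0 of the 9, as it called 0% of all tested genes, with 523 genes at an unadjusted p under 0.05. At that unadjusted level 6 of the 9 were lower (the 4 globins, *Alas2*, and *Ermap*), against a background of 1.18% of all tested genes. Both AAV-mVEGF-C libraries lay below both controls in CPM for 7 of the 9, against 15.2% of all tested genes, and above both controls for 0 of the 9, against 16.8%. The log2 fold change was negative for 9 of 9, against 49.6% of all tested genes, but *Gata1* turned positive on both TPM scales and without AAV-mVEGF-C 1. The median of the 9 was −1.49, and that of all tested genes 0.0034. The globin genes come as near copies that can share reads, so they are not separate observations. The 9 genes were also chosen with earlier results of these data known, so none of these shares is a test of the group.

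DESeq2, the tool named in the study's methods, called 3 of the 9 lower, against 0.0758% of the 19788 genes for which it gave an adjusted p. These were *Hba-a2* (log2 fold change −2.05, standard error 0.33, adjusted p = 4.2e-07), *Hbb-bs* (−1.81, standard error 0.34, adjusted p = 6.1e-05), and *Hba-a1* (−1.79, standard error 0.36, adjusted p = 0.00027). They were 3 of the 15 genes that DESeq2 called lower, and *Hba-a1* and *Hba-a2* among them are near copies that can share reads. *Hbb-bt* had an adjusted p of 0.079 and *Alas2* of 0.10 in DESeq2. The fold changes from both tools were nearly equal, so whether the globins passed depended on the test. The count also depended on single libraries, since edgeR called 5 of the 9 without AAV-CTRL 1, 3 without AAV-CTRL 2, 3 without AAV-mVEGF-C 2, and 0 without AAV-mVEGF-C 1. It called 412, 2058, 65, and 2 genes in all in those fits, in the same order.

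The 5 genes outside the globins were summed in the same way. They were at 17.0 and 23.3 CPM in the control pools, against 7.81 and 11.9 CPM with AAV-mVEGF-C, and the groups did not overlap. The difference in mean log2 CPM was −1.05, with an SD of 0.33 in AAV-CTRL and 0.43 in AAV-mVEGF-C (p = 0.333 in the same exact permutation test, again the lowest value possible). For each read of these 5 genes there were 6.78 and 6.06 globin reads in AAV-CTRL and 3.27 and 3.99 in AAV-mVEGF-C. For each *Alas2* read there were 31.3 and 20.8 globin reads in AAV-CTRL and 24.3 and 30.6 in AAV-mVEGF-C, so that ratio overlapped between the groups.

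Levels of different genes were compared in TPM. In AAV-CTRL the order of means was *Hba-a2* (96.1 ± 9.88 TPM; SD, n = 2), *Hbb-bs* (59.8 ± 13.9), *Hba-a1* (39.2 ± 12.8), and *Hbb-bt* (25.2 ± 11.1). The other genes followed far below, *Alas2* at 2.21 ± 1.26, *Slc4a1* at 1.19 ± 0.0509, *Gata1* at 1.13 ± 0.0799, *Ermap* at 0.914 ± 0.0460, and *Klf1* at 0.620 ± 0.141 TPM. Of the neighbors in this order, *Hba-a1* and *Hbb-bt* overlapped between libraries, as did *Slc4a1* and *Gata1*. Within each control library, *Hba-a1* was above *Hbb-bt* and *Slc4a1* above *Gata1*. In AAV-mVEGF-C the globins kept that order within each library, with *Hba-a2* at 13.1 and 26.9 TPM and *Hbb-bt* at 6.41 and 10.4 TPM. Between libraries, each globin overlapped with the next. *Gata1* came next there, at 1.32 ± 0.694 TPM, above *Slc4a1* at 0.510 ± 0.169 and *Alas2* at 0.464 ± 0.0834 TPM. The summed globins were at 0.934 and 1.14 TPM per TPM of *Ptprc* in AAV-CTRL, and at 0.183 and 0.374 in AAV-mVEGF-C.

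Other genes of the lineage, taken from written lists, had list medians slightly below the median of all genes, with single genes on both sides. Embryonic and minor globins were almost unread. *Hbb-bh1* had 18 reads in AAV-CTRL 1 and 0 elsewhere, *Hbq1b* had 3 reads in AAV-CTRL 2 and 0 elsewhere, and *Hba-x*, *Hbb-y*, *Hbb-bh2*, and *Hbq1a* had 0 reads in every library, which allows up to 3 reads in each. None of these 6 passed the expression filter.

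Of the 15 genes of the red cell membrane and its skeleton, edgeR called 0, with 10 lower, 5 higher, and a median log2 fold change of −0.16. The genes named from each list are those with the highest mean CPM, which is not scaled for gene length and gives no order of levels between genes. Here they were *Epb41*, which encodes protein 4.1, at 0.038 (standard error 0.18), the glycophorin C gene *Gypc* at −0.16 (0.33), the β spectrin gene *Sptb* at −0.022 (0.36), and the ankyrin gene *Ank1* at −0.72 (0.34). Of other blood group genes, values lay on both sides. *Rhd* had 64 and 25 reads in the controls, against 6 and 15 with AAV-mVEGF-C, and *Kel* had 21 and 27 against 5 and 6. *Xk* was higher in both AAV-mVEGF-C libraries than in both controls, with 131 and 191 reads against 279.93 and 195, and *Icam4* had 15 and 53 against 55 and 29. *Rhd*, *Kel*, *Xk*, and *Icam4* were picked after their values were seen.

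For the 16 genes of heme synthesis and iron supply the median was −0.12, with 10 lower, 6 higher, and 0 called by edgeR. *Tfrc*, the transferrin receptor gene, had a log2 fold change of −0.39 (standard error 0.17) and did not overlap between groups. *Fech*, which encodes the last enzyme of heme synthesis, was at −0.24 (0.20), *Alas1* at −0.13 (0.30), and *Slc25a37*, a mitochondrial iron importer gene, at 0.12 (0.17). Most of these genes serve every cell that makes heme.

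The 12 transcription factor and receptor genes had a median of −0.14, with 9 lower, 3 higher, and 0 called by edgeR. The 4 with the highest mean CPM, *Cbfa2t3* (0.24, standard error 0.26), *Ldb1* (−0.013, 0.16), *Nfe2* (−0.12, 0.32), and *Bcl11a* (−0.16, 0.33), are also used by other blood cells, and their groups overlapped. *Tal1*, a partner of GATA1, was the member of this list with an unadjusted p under 0.05, at 10.8 and 9.94 CPM in the control pools, against 4.15 and 7.13 CPM with AAV-mVEGF-C (log2 fold change −0.88 ± 0.35, SE, with an edgeR adjusted p of 0.999). *Epor*, the erythropoietin receptor gene, was at 3.40 and 2.36 CPM in the control pools, against 1.31 and 1.74 CPM with AAV-mVEGF-C. *Tal1* and *Epor* were also picked after their values were seen.

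Of 19 late erythroid genes listed, 17 were tested, with 12 lower, 5 higher, a median of −0.15, and 0 called by edgeR. *Ahsp* was not analysed here. Those with the highest mean CPM were *Mkrn1* (−0.15, standard error 0.25), *Tent5c* (0.54, 0.17), *Bnip3l* (−0.12, 0.22), and *Xpo7* (0.19, 0.21), none of which is confined to red cells. *Tent5c*, which is also a plasma cell gene, was the only tested gene of the erythroid lists with a positive log2 fold change and an unadjusted p under 0.05 in edgeR. Across the erythroid lists without the 9 genes, 60 of 68 were tested, and 41 were lower and 19 higher, with a median of −0.13. Both AAV-mVEGF-C libraries lay below both controls for 14 of these 60 and above both for 4, against 15.2% and 16.8% of all tested genes.

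**Figure D3:**
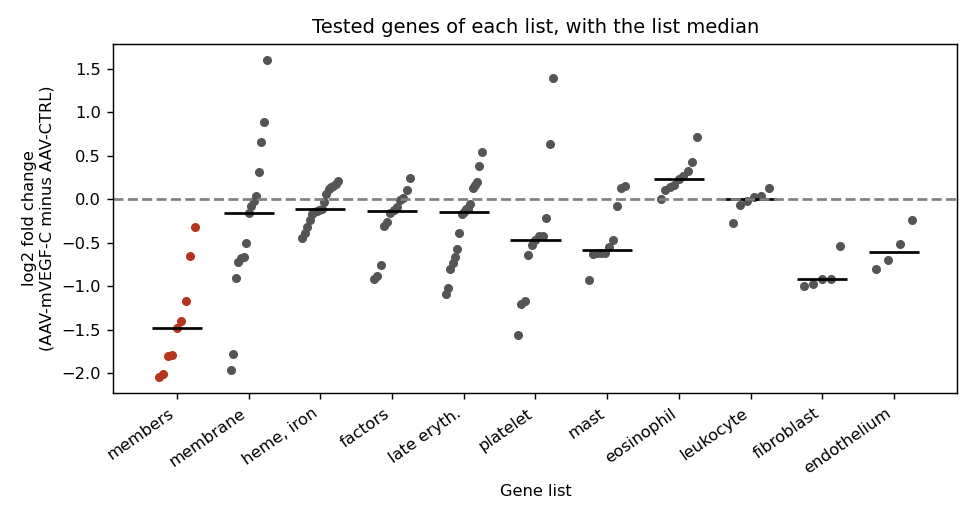
edgeR log2 fold changes (AAV-mVEGF-C minus AAV-CTRL) of the tested genes of the lists named on the x axis, 1 point per gene, with the list median as a black line and the median of all tested genes dashed. The 9 hemoglobin and erythroid genes have a median of −1.49, while the other erythroid lists have medians from −0.16 to −0.12 and the fibroblast list −0.92.

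Fibroblasts and endothelial cells lie outside the CD45+ gate, and their markers were also read. All 5 fibroblast markers (*Col1a1*, *Col1a2*, *Dcn*, *Lum*, and *Pdgfra*) were lower in both AAV-mVEGF-C libraries than in both controls, with a median log2 fold change of −0.92 and 0 called by edgeR. Of all tested genes, 15.2% lay below both controls in the same way. The summed level of the 5 markers was 584 and 918 CPM in AAV-CTRL and 311 and 472 CPM in AAV-mVEGF-C, 1.92-fold lower. The order of the 4 libraries was that of the summed globins. The summed endothelial and platelet genes, given below, had that order too. Globin CPM was 19.7% and 15.4% of fibroblast CPM in AAV-CTRL, and 8.20% and 10.0% in AAV-mVEGF-C. The 4 endothelial markers (*Pecam1*, *Cdh5*, *Kdr*, and *Cldn5*) summed to 63.8 and 73.5 CPM in the control pools and 53.8 and 54.6 CPM with AAV-mVEGF-C, with a median of −0.61. Most of that sum was *Pecam1*, at 47.2 and 51.6 CPM in the control pools and 42.2 and 41.5 CPM with AAV-mVEGF-C. *Cldn5* overlapped between the groups. The part of such cells in the globin difference was not tested.

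Markers of other cells that can use members of the group were read too. The 10 mast cell markers summed to 2649 and 1828 CPM in the control pools and 1682 and 1754 CPM with AAV-mVEGF-C, with 8 lower, 2 higher, and a median of −0.59. *Cma1*, *Mcpt4*, *Tpsb2*, *Cpa3*, *Ms4a2*, and *Fcer1a* did not overlap between the groups, while *Hdc*, *Kit*, *Tpsab1*, and *Mrgprb1* did. Of all tested genes, 15.2% lay below both controls. At an unadjusted p under 0.05 in edgeR, 5 of the 10 were lower, against 1.18% of all tested genes, and 0 were called after adjustment. The 9 eosinophil markers (*Siglecf*, *Epx*, *Prg2*, *Prg3*, *Ccr3*, *Il5ra*, *Ear1*, *Ear2*, and *Ear6*) summed to 453 and 136 CPM in the control pools and 364 and 318 CPM with AAV-mVEGF-C, and all 9 had a positive log2 fold change, with a median of 0.23. *Prg2* and *Epx*, which encode granule proteins, were lowest in AAV-CTRL 2, at 50.7 and 13.5 CPM. The 14 platelet and megakaryocyte genes summed to 67.5 and 85.7 CPM in the control pools and 49.3 and 65.6 CPM with AAV-mVEGF-C. Of these, 11 were tested, 9 were lower, and the median was −0.47. *Pf4*, the platelet factor 4 gene, which macrophages also express, was at 27.9 and 46.0 CPM in the control pools, against 19.2 and 35.9 CPM with AAV-mVEGF-C. *Itga2b* had a log2 fold change of −0.47 (standard error 0.28), *Nrgn* of −0.53 (0.43), and *F2rl2* of −0.22 (0.44). The 3 basophil markers (*Mcpt8*, *Prss34*, and *Cd200r3*) summed to 16.5 and 15.2 CPM in the control pools and 8.73 and 10.4 CPM with AAV-mVEGF-C, with no overlap of the sums and a median of −0.24. Of these, *Mcpt8* and *Prss34* overlapped between the groups, and only *Cd200r3* did not. *Cd200r3* had a log2 fold change of −0.93 and an unadjusted p under 0.05, with an edgeR adjusted p of 0.999. What these cells add to *Gata1* or to the other members was not tested.

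**Figure D4:**
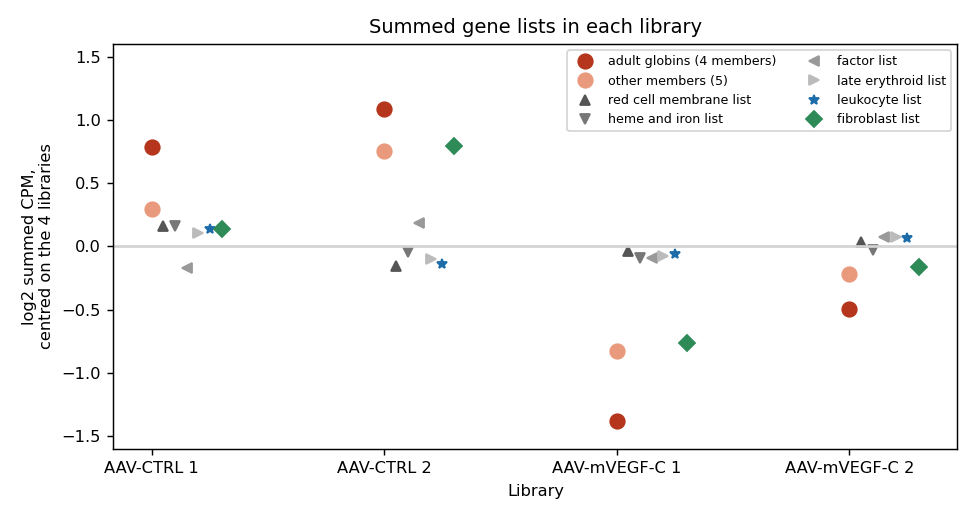
log2 of the summed CPM of each group of genes in each library, centred on its mean over the 4 libraries. Globins, the other members, and the fibroblast list have the order AAV-CTRL 2, AAV-CTRL 1, AAV-mVEGF-C 2, and AAV-mVEGF-C 1 from high to low. The endothelial and platelet sums, which are not drawn, have that order too. The leukocyte list and the other erythroid lists stay within 0.19 of 0.

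The genes whose pattern over the 4 libraries was most like that of the summed globins were, leaving out the 9 members themselves, *Retnla*, *Egfl6*, *Gm43302*, *Fxyd1*, and *Aspn*. Likeness was the Euclidean distance between log2 CPM profiles centred on their means, over 18259 genes with reads in every library. The distances were 0.18, 0.24, 0.29, 0.36, and 0.40. *Retnla*, which encodes a resistin-like protein, was at 4.76 and 6.22 CPM in the control pools, against 1.15 and 2.33 CPM with AAV-mVEGF-C. *Aspn*, which encodes the matrix protein asporin, was at 4.52 and 4.19 CPM in the control pools, against 0.947 and 1.36 CPM with AAV-mVEGF-C. Of the members that do not enter the sum, *Klf1* was at a distance of 0.34, with 3 other genes closer, and *Alas2* at 0.49, with 7 closer. *Ermap*, *Slc4a1*, and *Gata1* had 169, 561, and 820 genes closer. With 4 libraries, many genes share such a profile.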

How the data were processed

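CD45+ dural cells of 2 libraries per group were measured by stranded total RNA sequencing. The authors deposited estimated counts, of which 8.18% have decimals, without normalization, and TPM values for the same genes. The submitters' processing notes name FastQC, Trimmomatic, DRAGEN, Picard, and mm10, and the annotation is not given in the sources used here (54349 of 55401 identifiers occur with the same version in GENCODE M21). Counts were rounded and tested over all genes with glmQLFit and glmQLFTest of edgeR 4.0.16 in R 4.3.3, with TMM scaling, filterByExpr at its defaults, no covariate, and Benjamini-Hochberg adjustment at 0.05. A standard error is the log2 fold change over the square root of F. Per-library CPM values use unrounded counts. Fits were checked on simulated data.

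The members and lists were chosen with earlier results of these data known. Named are all 9 members, the 4 genes of each list with the highest mean CPM, genes called, the leukocyte, mast cell, and eosinophil markers, and the 5 nearest profiles outside the members. Embryonic globins and genes said to be picked after their values were seen are further ones. DESeq2 1.42.0, limma 3.58.1 (voom and TPM), a replicate block, RLE scaling, other filters, and each library left out were alternatives. Columns are mapped by the sample descriptions, and 0 columns were unused. 1 gene of the lists is not reported by name here.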

Additional observations from a re-analysis of the deposited data

How the results depend on the processing

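The number of genes that edgeR called was 0 of 19806 (523 at an unadjusted p under 0.05) and stayed 0 with limma-voom (681), RLE size factors (533), at least 10 reads in every library (556), and log2(TPM + 1) (902) or log2(TPM + 0.1) (884). It was 77 with DESeq2, 268 with no filter, and 2 to 2058 with a library left out, which leaves a lone library assumed to vary like the other group. Of the 9 members, 0 were called in the main test, 3 with DESeq2, 4 with no filter (the globins), and 0 to 5 with a library left out. The cause was not tested.

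When libraries sharing an experiment number formed a replicate block, 11 genes and 0 members were called. Deviations of same-numbered libraries from their group means correlated at −0.134 across genes. With 2 libraries per group, each deviation comes from a single difference, so this value cannot settle whether same-numbered libraries were handled together. The main test does not pair them. With the numbers crossed in the block, a pairing added after seeing the data, 54 genes and 1 member (*Hba-a2*) were called. The summed differences were the same under the block by construction, at −1.88 for globins and −1.05 for the other members.

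The globin difference ranged from −2.32 to −1.43 and that of the other members from −1.35 to −0.75 with a library left out. *Gata1* turned to 0.086 on log2(TPM + 1), 0.11 on log2(TPM + 0.1), and 0.16 without AAV-mVEGF-C 1, and was −1.03 without AAV-mVEGF-C 2. The other 8 members kept a negative log2 fold change in all 13 alternatives, with *Slc4a1* at −0.052 and *Hbb-bt* at −0.88 without AAV-CTRL 2. On log2(TPM + 1), *Alas2* was at −1.08, *Slc4a1* at −0.54, *Ermap* at −0.48, and *Klf1* at −0.44. The globins ranged there from −2.29 (*Hba-a2*) to −1.44 (*Hbb-bt*). *Klf1* had the fewest reads of the members, 13 to 53 per library.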
